A study of Mus musculus with 18 samples.

Results

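The change in the SOD1 G93A genotype difference between 90 and 120 days was examined in lumbar spinal motor neurons of mice. It is the interaction (G93A minus control at 120 days) minus (G93A minus control at 90 days) on the log2 scale, and it asks what the genotype difference gained or lost between these ages. Its members were chosen by the titles of the samples: 12 of the 18 arrays of the series, 3 each from G93A mice aged 120 days, controls of that age, G93A mice aged 90 days and their controls. The other 6 arrays, 3 from G93A mice and 3 from their controls at 60 days, enter the estimate of the spread, and their genotype difference is given beside some lists. G93A mice carry a human SOD1 transgene with the G93A mutation, and the controls are their littermates without the transgene. The labels do not give the strain, the sex or the promoter of the transgene. From each animal, 1000 neurons were captured by laser from frozen sections of 10 µm stained with toluidine blue, and antisense RNA labelled with biotin was hybridised to 1 array per animal. A capture of this kind also takes up material that surrounds the cell bodies, and in such pooled RNA fewer cells of a type and less RNA per cell cannot be told apart.

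The G93A mouse is a widely used model of inherited amyotrophic lateral sclerosis, in which spinal motor neurons withdraw from muscle and die while microglia and astrocytes around them become reactive. Motor neurons have very long axons and depend on mitochondrial ATP, axonal transport and protein quality control. Chaperones, the proteasome and lysosomes handle misfolded protein, among them mutant SOD1 itself. Genes of these systems, markers of the neighbouring cell types, and receptors of the synapses on motor neurons are described here in turn.

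The labelled cell type was checked against its markers. Of 31 genes listed for motor neuron identity, 27 were on the array and 24 had a probe set that was tested. Neurofilament heavy chain Nefh had signals of 453.6 to 3470.9 over the 12 arrays, peripherin Prph of 114.8 to 590.4, the calcitonin gene-related peptide gene Calcb of 171 to 2636.1 and the LIM homeobox factor Isl2 of 94.1 to 235.6. The array medians of the 18 arrays lay between 37 and 64, so these 4 genes stood above them. Some other tested members lay within or below this range. Median signals over the 12 arrays were 43.6 for Mnx1, 49.65 for Ret, 25.55 for Ngfr and 23.3 for Chrna3. Chodl (365.75) and Uts2 (249.55) were among those above it. The acetylcholine transporter Slc18a3 (2.7 to 53.2) and the choline transporter Slc5a7 (2.2 to 67.1) were not tested, since their signals lay above the array median in 0 and 2 of the 18 arrays. Myelin basic protein Mbp, the marker of oligodendrocytes, had signals of 3113.2 to 18709.4, and its part in the results was not tested.

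Of 4 measures of the arrays, the median signal differed along with the comparison. It averaged 54.3 in G93A and 43.7 in controls at 120 days, against 47.4 in G93A and 52.9 in controls at 90 days. The difference of differences was 16.1 (exact permutation test of genotype labels within ages, two-sided, p = 0.02, adjusted over the 4 measures p = 0.08). The same exact permutation test gave p = 0.42 for the hybridization controls, p = 0.395 for the Gapdh 3′ to 5′ ratio and p = 0.645 for the actin 3′ to 5′ ratio. The hybridization controls averaged 11.62 (log2) in G93A and 11.64 in controls at 120 days, against 9.09 and 9.83 at 90 days. The Gapdh ratio averaged 4.94 (log2) in G93A and 4.48 in controls at 120 days, against 4.39 and 3.25 at 90 days. The part of these measures in the age differences given below was not tested. The part of the median signal in the results was not tested beyond the scalings given below. Replicate 1 of the controls at 120 days had the lowest median signal of the 18 arrays (37), and leaving it out moved 36 of 236 gene values and 17 of 37 list medians described below by over 1.5 times. For the other 11 arrays these counts were 3 to 20 genes and 9 to 15 lists. Scaling also mattered: the median interaction of all 10051 genes was 0.06 as deposited, -0.42 with each array centred on its median and -0.13 after quantile normalization. Values of genes and lists are therefore to be read beside the median of all genes, and a list whose sign turns with the scaling is named as such. Median centring moved all values by the same amount. A sign that turned with it thus left the place of a list relative to all genes as it was. Where a gene is described as having other probe sets of opposite sign, these are its further tested probe sets. Those of the same sign are in general not listed, and they can have smaller values, as for Mrps14 and Gad1.

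No probe set passed the test for the interaction. Of 16565 probe sets tested with limma, 0 had an adjusted p under 0.05 (0%), and the smallest adjusted p was 0.279. At an unadjusted p under 0.05 there were 1661 probe sets (10%), 864 with a positive value (5.22%) and 797 with a negative one (4.81%). Taken per gene, with 1 probe set each, 986 of 10051 genes (9.81%) had an unadjusted p under 0.05, 463 positive (4.61%) and 523 negative (5.2%). These shares are the background for the counts of list members below. The median standard error of an interaction was 0.98 on the log2 scale, so 3 animals per group limited what could be resolved. All values below are therefore measurements with their errors, and none is called a change.

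The interaction mostly joined genotype differences of opposite sign. Among the 463 genes with a positive value at an unadjusted p under 0.05, 443 (95.7%) had opposite signs at the ages, with a median difference of 1.26 at 120 days and -0.81 at 90 days. Among the 523 negative genes 497 (95%) did, with medians of -1.15 at 120 days and 0.65 at 90 days. A choice on the interaction favours such pairs, and over all genes the share was 54.9%. The larger age difference lay in the G93A animals for 414 of the 523 negative genes (79.2%), where the median from 90 to 120 days was -1.54 in G93A and 0.33 in controls. For the 463 positive genes it lay in G93A for 274 (59.2%), with medians of 1.35 in G93A and -0.93 in controls. Over all genes the share was 56.9%.

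**Figure D1:**
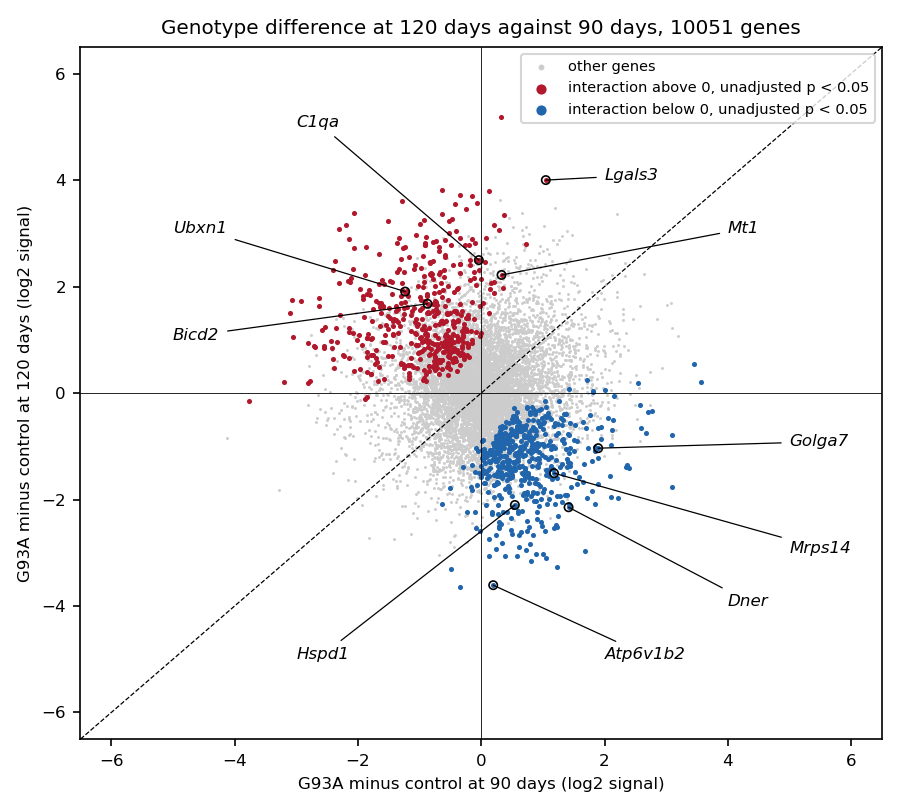
Genotype difference (G93A minus control, log2 signal) at 120 days on the vertical axis against that at 90 days on the horizontal axis, 1 point per gene for 10051 genes. The dashed line marks equal differences; the 463 genes coloured red lie above it, the 523 coloured blue below it, and most of both lie in the quadrants of opposite sign.

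The sign of the genotype difference was shared by the ages for 45.1% of all genes. The 561 genes higher in G93A at 120 days at an unadjusted p under 0.05 had a median difference of 1.74 there and -0.12 at 90 days, and 234 of them (41.7%) kept their sign. The 637 genes lower in G93A at 120 days had a median of -1.31 there and 0.16 at 90 days, with the same sign for 223 (35%). Read the other way, the 254 genes higher and the 215 genes lower in G93A at 90 days kept their sign at 120 days in 127 (50%) and 87 (40.5%) cases. These shares were not tested with median centring or quantile normalization. The array median signal also differed between genotypes in opposite directions at the ages, and its part here was not tested. Genes are not independent replicates; across them the 120-day and 90-day differences had a Pearson's r of -0.08 and Spearman's rho of -0.10. No arrays were shared by the 2 differences. G93A and control arrays did not overlap in opposite directions at both ages for 143 genes (1.42%) and in the same direction for 49 (0.488%).

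Among the named positive genes, the metallothionein Mt1, a small protein that binds zinc and copper, was higher in G93A at both ages. Its signals were 9723.2, 11202.4 and 5527.5 in G93A at 120 days, against 1266.9, 1577 and 2991.7 in controls of that age. At 90 days they were 758.8, 1003.1 and 763.4 in G93A, against 683.4, 595.3 and 721.1 in controls. All G93A arrays lay above all control arrays at both ages, by 2.22 at 120 days and 0.33 at 90 days on the log2 scale, so the interaction was 1.89 ± 0.51 (SE, n = 3 per group, limma adjusted p = 0.290). Of these, the genotype difference of Mt1 at 120 days passed its own test (limma adjusted p = 0.0376) and that at 90 days did not (limma adjusted p = 0.997). The age difference was 3.34 in G93A animals and 1.45 in controls. Its paralogue Mt2 had signals of 2868.8, 2276.6 and 1062.8 in G93A at 120 days, against 365.2, 782.1 and 1609.5 in controls of that age, where the groups overlapped. At 90 days Mt2 read 569.4, 562.4 and 730.4 in G93A, against 295.1, 482.8 and 476.7 in controls, and its interaction was 0.71 ± 0.56. Leaving out 1 array at a time gave Mt2 values from 0.17, without replicate 1 of the controls at 120 days, to 1.24, without replicate 3 of that group. The promoters of both genes are shown because metallothioneins are textbook targets of the metal-sensing factor Mtf1, which binds metal response elements. They span 250 bases before to 50 after the RefSeq start, at chr8:94178839-94179138 for Mt1 and chr8:94172368-94172667 for Mt2, both on the plus strand of GRCm38.p6, and capitals mark TGCACNC or TGCGCNC on either strand.
Mt1 promoter: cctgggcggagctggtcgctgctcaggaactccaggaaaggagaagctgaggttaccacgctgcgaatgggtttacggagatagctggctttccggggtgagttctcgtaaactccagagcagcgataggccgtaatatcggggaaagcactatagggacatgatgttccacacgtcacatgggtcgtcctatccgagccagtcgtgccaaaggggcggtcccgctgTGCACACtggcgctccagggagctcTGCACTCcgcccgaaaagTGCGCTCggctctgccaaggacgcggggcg
Mt2 promoter: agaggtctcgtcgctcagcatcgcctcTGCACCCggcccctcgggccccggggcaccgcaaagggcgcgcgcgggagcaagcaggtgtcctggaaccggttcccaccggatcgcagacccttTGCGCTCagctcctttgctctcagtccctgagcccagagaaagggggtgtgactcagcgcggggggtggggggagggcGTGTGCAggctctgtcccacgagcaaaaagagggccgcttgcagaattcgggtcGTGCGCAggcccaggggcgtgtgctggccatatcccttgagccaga
Mt1 held 3 such matches and Mt2 held 4. A promoter was matched for 10 of the 16 tested genes of metal handling, and 6 of their 14 windows (42.9%) held at least 1, as did 25.7% of the 32851 mouse windows searched. A match of this kind is a description of the letters, and these data hold no binding measurement. Of the 16 tested members of the list, 1 was positive at an unadjusted p under 0.05 (Mt1, 6.25%) and 0 were negative. The median interaction was 0.45, a sign that turned to -0.02 with median centring. Each of these values lay 0.40 above the median of all genes under the same scaling. Mtf1 itself had an interaction of 1.04 ± 0.73, and 0.45 without replicate 1 of the controls at 120 days or 1.71 without replicate 3 of that group.

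Complement and microglial genes formed the next group of positive values. C1qa, a chain of the C1q molecule that starts the classical complement pathway, had signals of 87.2, 188.9 and 176.6 in G93A at 120 days, against 28.4, 16.4 and 34.7 in controls of that age. At 90 days the signals were 88.6, 103.2 and 114.6 in G93A, against 86.5, 100.7 and 130.4 in controls. The genotypes overlapped at 90 days and stood apart at 120 days, where the late controls were the low group. On the log2 scale the interaction of C1qa was 2.54 ± 0.67 (limma adjusted p = 0.279), made of an age difference of 0.49 in G93A and -2.05 in controls. The other C1q chains had values of 0.23 ± 1.28 for C1qb and 0.38 ± 1.06 for C1qc, within 1 SE of 0. C1qc had 172.4, 170 and 146.6 in G93A at 120 days, against 27, 72.6 and 135.8 in controls of that age. Cfb, factor B of the alternative pathway, had an interaction of 4.75 ± 1.22 at signals between 5 and 121.9. In all, 9 of 9 tested complement genes had a value above 0 as deposited, where 52.2% of all genes did. At an unadjusted p under 0.05, 2 of them (22.2%) were positive, Cfb and C1qa. The list median was 0.98, and 0.41 without replicate 1 of the controls at 120 days. With median centring it was 0.51, and not all members stayed above 0, since Cd59a turned from 0.30 to -0.17.

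Lgals3, the galactose-binding protein galectin-3 of activated phagocytes, had signals of 768.2, 1124.5 and 1135.5 in G93A at 120 days, against 12.2, 89.9 and 218.2 in controls. The 90-day signals were 35.4, 200.4 and 87.5 in G93A, against 61, 21.4 and 53.9 in controls. The late G93A arrays exceeded all 9 others, while the genotypes overlapped at 90 days. The interaction was 2.95 ± 1.01 (limma adjusted p = 0.368), and 1.78 without replicate 1 of the controls at 120 days. Cd52, a surface glycoprotein of leukocytes, read 205.4, 232.9 and 209.2 in G93A at 120 days, against 38.6, 70.4 and 55.5 in controls. At 90 days Cd52 read 29.4, 9.4 and 23.8 in G93A, against 21.7, 41.3 and 62.6 in controls, and its interaction was 3.05 ± 0.99. Trem2, a lipid-sensing receptor of microglia, had 2.86 ± 1.25 at signals between 9.7 and 70.8. Csf1r, the receptor of the growth factor on which microglia depend, had 13708.2, 9707.9 and 6871.9 in G93A at 120 days, against 2375.4, 2484.5 and 4619.8 in controls. At 90 days Csf1r read 754.8, 1908.5 and 1383.4 in G93A, against 634.8, 1232.5 and 772.7 in controls. Its signals were thus higher at 120 days in both genotypes, by 2.95 in G93A and 1.83 in controls, which left an interaction of 1.12 ± 0.57. Tyrobp, the adaptor through which Trem2 signals, had an interaction of 1.08 ± 0.82, with a genotype difference of 2.51 at 120 days and 1.43 at 90 days. The Tyrobp value was 0.52 without replicate 1 of G93A at 90 days, 0.58 without replicate 1 of the controls at 90 days and 0.66 without replicate 1 of the controls at 120 days.

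Over the microglia and macrophage list, 20 of 24 tested members had an interaction above 0, 3 of them at an unadjusted p under 0.05 (12.5%, against 4.61% of all genes), and 0 were negative at that level. The median was 0.62, with a genotype difference of 1.25 at 120 days and 0.71 at 90 days, and 0.15 with median centring. It was 1.02 without replicate 3 of the controls at 90 days and 0.98 without replicate 2 of the controls at 120 days. The list level of an array, its members' mean log2 level less the mean over all genes, was 0.57, 0.49 and 0.62 in G93A at 120 days, against -1.11, -0.56 and -0.38 in controls. At 90 days it was -0.95, -0.04 and -0.33 in G93A, against -1.11, -0.75 and -1.33 in controls. The late G93A arrays stood above all others, and the genotypes overlapped at 90 days. Members against the direction were the phagocyte receptor genes Cd14 (-2.47 ± 1.35) and Fcgr2b (-0.63 ± 0.57), the leukocyte phosphatase Ptprc (-2.56 ± 1.41, and -1.38 without replicate 2 of G93A at 120 days) and the protease Ctss (-0.66 ± 0.50). Aif1 was not tested, with signals of 3.9 to 48.5.

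Interferon and antigen presentation genes had a median interaction of 0.73, with 19 of 22 tested members above 0 and 1 positive at an unadjusted p under 0.05 (4.55%, near the 4.61% of all genes), the transcription factor Irf8 (2.50 ± 1.10, and 1.47 without replicate 2 of G93A at 90 days). The genotype difference had a median of 0.68 at 120 days and -0.23 at 90 days. Ifitm2, an interferon-induced membrane protein, read 214.4, 193.1 and 207.1 in G93A at 120 days, against 65.7, 154.2 and 182.3 in controls, and had an interaction of 1.18 ± 0.68, and 0.73 without replicate 1 of the controls at 120 days. The class I light chain B2m had 0.28 ± 0.59 and the class II chaperone Cd74 0.74 ± 0.70. With median centring the list median was 0.26.

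**Figure D2:**
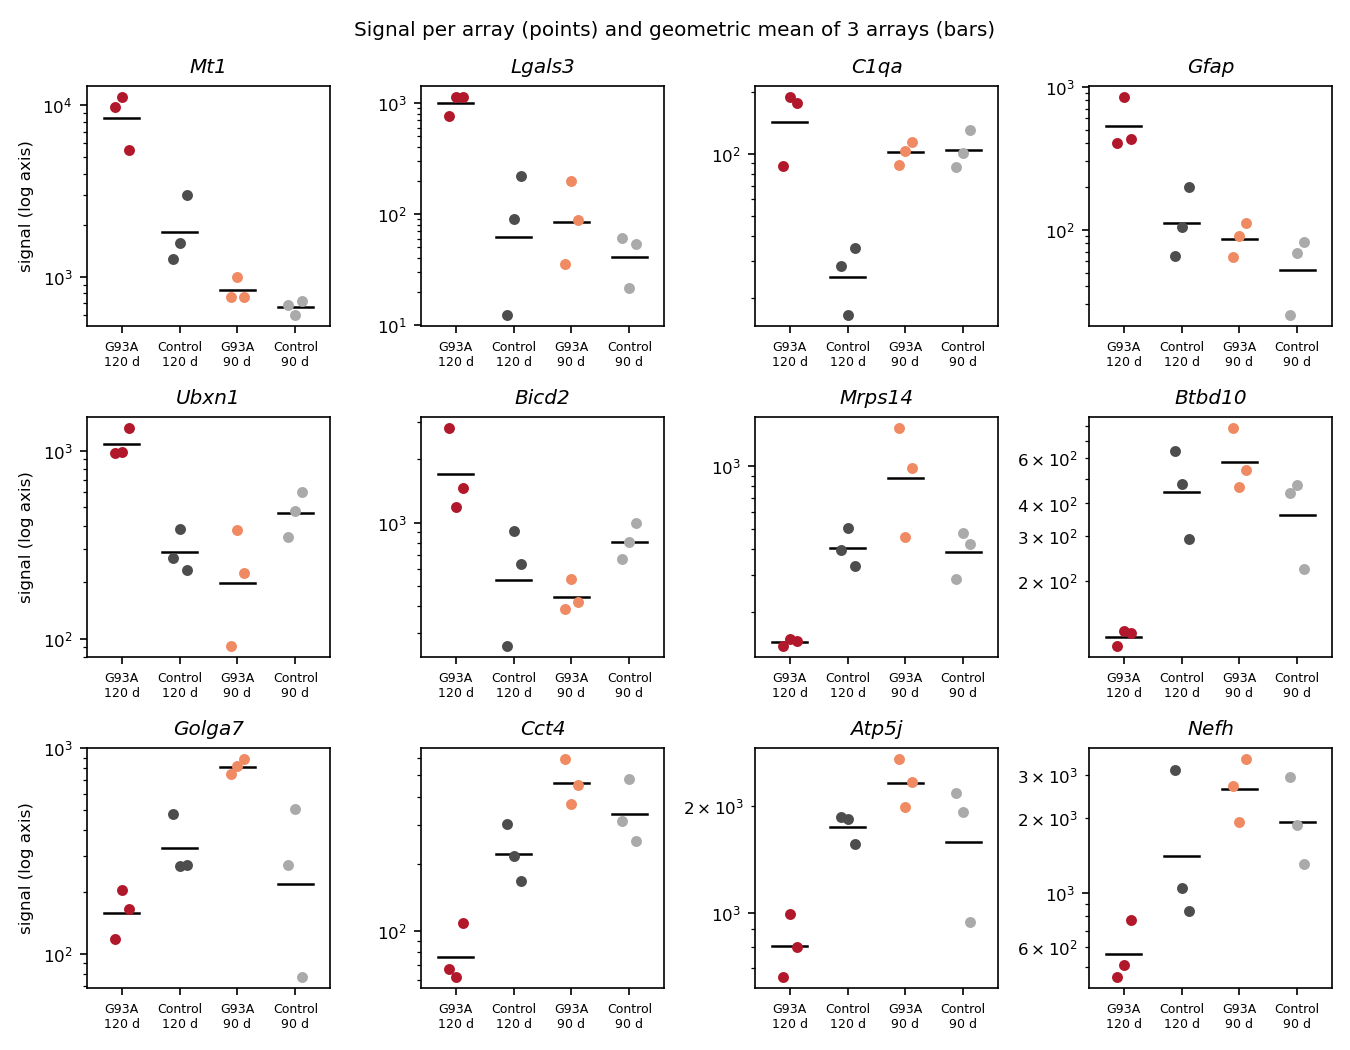
Deposited signal (log axis) of 12 genes on each of the 12 arrays, with G93A and control at 120 days to the left and G93A and control at 90 days to the right in each panel. Points are arrays and bars are geometric means of 3 arrays. Mt1, Lgals3 and Gfap are highest in the late G93A arrays, while Mrps14, Btbd10, Cct4 and Nefh are lowest there.

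The other positive genes had a genotype difference above 0 at 120 days and below 0 at 90 days. They were taken by smallest p among the more abundant genes whose genotypes did not overlap at 90 or at 120 days. Separation at either or both ages was thus fixed by the choice. Over all genes, 16.1% did not overlap at 120 days and 11.5% at 90 days. Ubxn1, which links ubiquitin to the p97 segregase, read 973.4, 980.8 and 1320.7 in G93A at 120 days, against 270.1, 381.3 and 232.5 in controls. At 90 days Ubxn1 read 91.1, 377.5 and 222.8 in G93A, against 349.4, 475.3 and 599.8 in controls, and the interaction was 3.14 ± 0.76. The late genotypes did not overlap and the earlier ones did. Bicd2, an adaptor that joins cargo to the dynein motor and is mutated in a dominant human spinal muscular atrophy, read 2818.6, 1188.2 and 1460.7 in G93A at 120 days, against 257.9, 909.1 and 638.9 in controls. At the earlier age it read 390, 537.6 and 417.7 in G93A, against 668.8, 806.9 and 992.9 in controls. The groups of Bicd2 stood apart at both ages in opposite directions, with an interaction of 2.55 ± 0.62, although 1 of its 3 other probe sets had the opposite sign. Otub1, a deubiquitinase, did the same with 1.76 ± 0.47, and the nuclear factor Nfic with 1.96 ± 0.49. The remaining ones were Csnk2a1 (casein kinase 2, 2.33 ± 0.60, with 2 of 3 other probe sets of opposite sign), Cd99l2 (a surface protein, 2.27 ± 0.57, with 1 of 3 other probe sets of opposite sign), Rab40c (a small GTPase, 1.83 ± 0.50, with its other probe set of opposite sign), Rasa2 (a Ras GTPase-activating protein, 2.03 ± 0.55) and Pinx1 (a telomerase inhibitor, 2.69 ± 0.75). To these came Hmga2 (a chromatin protein, 2.21 ± 0.62), Eif3c (a translation initiation factor subunit, 2.36 ± 0.67, with 1 of 3 other probe sets of opposite sign), Irx5 (a homeobox factor, 2.30 ± 0.66) and Cnppd1 (1.85 ± 0.54). The limma adjusted p of the 15 positive genes, C1qa and Mt1 included, was between 0.279 and 0.318.

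The 15 negative genes taken by the same rule include a mitochondrial ribosomal protein, a chaperonin subunit, an ATP synthase subunit and several neuronal proteins. Mrps14, a protein of the small mitochondrial ribosomal subunit, read 136.1, 148 and 144.2 in G93A at 120 days, against 397.3, 505.3 and 331.1 in controls. At 90 days Mrps14 read 1523.9, 454.6 and 975 in G93A, against 288.1, 477.9 and 421.3 in controls, and its interaction was -2.69 ± 0.58 (limma adjusted p = 0.279). The late G93A arrays were the lowest of the 12, and the age difference was -2.62 in G93A and 0.07 in controls. Another probe set of Mrps14 had an interaction of -0.92 ± 0.66, and its genotypes overlapped at both ages. Its age difference was -1.46 in G93A and -0.55 in controls. Btbd10, a BTB domain protein, read 111, 127 and 125.7 in G93A at 120 days, against 637.7, 475.3 and 289.7 in controls. At 90 days it read 787.6, 463.3 and 538.4 in G93A, against 439.7, 471.9 and 223.2 in controls, and its interaction was -2.57 ± 0.58. For Golga7, a partner of a Ras palmitoyltransferase, the groups did not overlap at either age and crossed. Golga7 read 118, 204.6 and 166.2 in G93A at 120 days, against 481.1, 266.9 and 269.3 in controls, and 748.3, 816.4 and 888.6 in G93A at 90 days, against 269.4, 507.9 and 76.8 in controls, for an interaction of -2.93 ± 0.70. The neuronal Ras-like GTPase Rit2 (-2.27 ± 0.55, with 1 of 2 other probe sets of opposite sign), the endoplasmic reticulum protein Jkamp (-2.16 ± 0.53), the peroxisomal transporter Abcd3 (-1.94 ± 0.48) and the Notch-like ligand Dner (-3.56 ± 0.94) also crossed without overlap, as did Wsb2 (-2.17 ± 0.57), whose other probe set had the opposite sign.

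Further members of this set were lower in every G93A array than in every control array at 120 days and overlapped at 90 days. Absence of overlap at either or both ages was part of the choice. They were Nbea, which sorts synaptic receptors (-2.37 ± 0.59), the actin-severing protein Dstn (-3.37 ± 0.87), the purine salvage enzyme Hprt (-2.37 ± 0.61) and the RNA-binding protein Hnrnpdl (-2.19 ± 0.54). The nuclear actin-related protein Actr6 (-2.31 ± 0.61) was another. Hprt, often used as a reference gene, read 75.7, 81.4 and 188 in G93A at 120 days, against 496.3, 288.9 and 224.6 in controls. The earlier signals were 1206, 651.5 and 1178.7 in G93A, against 584.9, 733.9 and 431.7 in controls. The level of Hprt thus differed by age in G93A by -3.21 and in controls by -0.84. The limma adjusted p of the 15 negative genes was 0.279 for each.

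**Figure D3:**
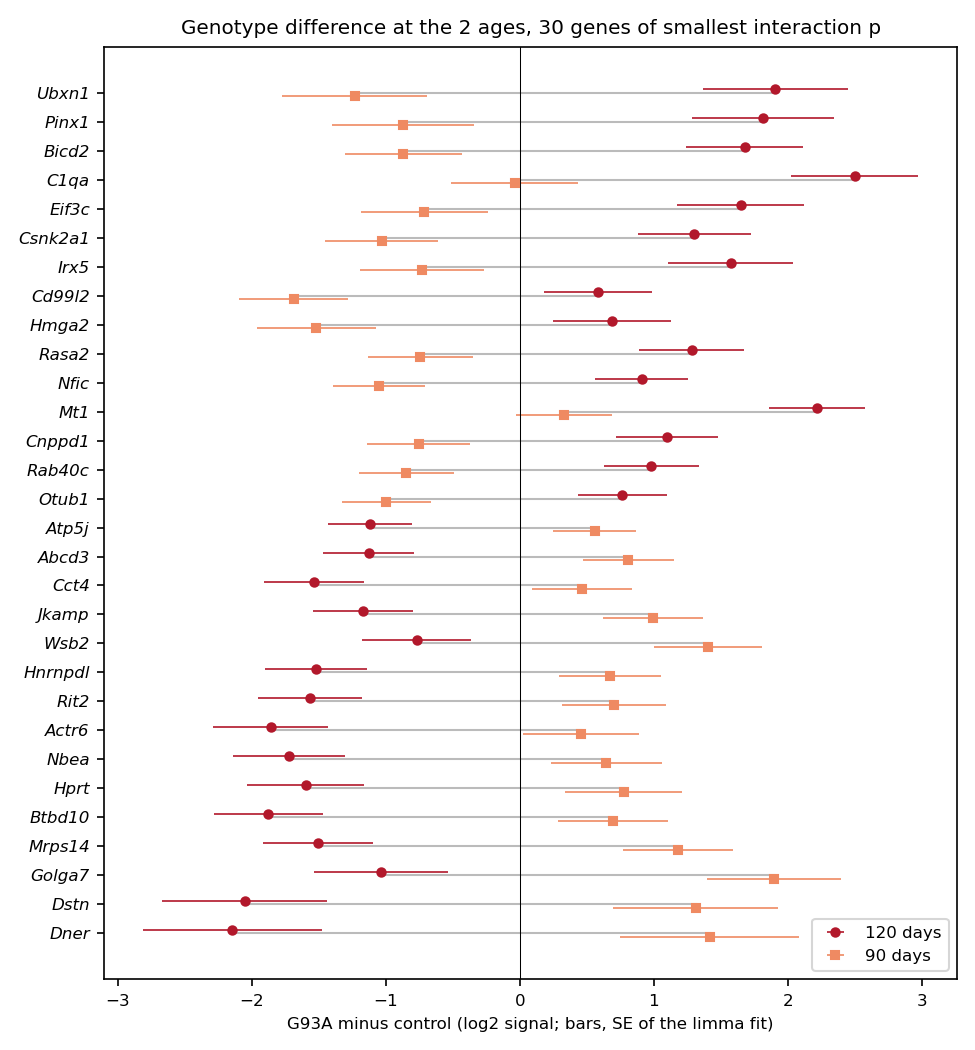
Genotype difference (G93A minus control, log2 signal) at 120 days (circles) and at 90 days (squares) for the 15 genes per direction with the smallest interaction p among abundant genes. These were chosen among genes whose genotypes did not overlap at either or both ages. Bars are standard errors of the limma fit. Of the 30 genes, Mt1 alone has positive differences at both ages.

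Genes of the proteasome, which degrades ubiquitinated protein, had mostly negative interactions. Of 37 tested subunits 29 lay below 0, 8 at an unadjusted p under 0.05 (21.6%, against 5.2% of all genes) and 0 above 0 at that level, with a median of -0.90. The genotype difference had a median of -0.65 at 120 days, 0.09 at 90 days and 0.30 at 60 days. The list level was 0.56, 0.67 and 1.12 in G93A at 120 days, against 1.80, 1.44 and 1.33 in controls, and 1.77, 1.45 and 1.65 in G93A at 90 days, against 1.54, 1.70 and 1.22 in controls. The late G93A arrays lay below all 9 others. Psmb4, a subunit of the core particle, read 91.8, 66.1 and 133.4 in G93A at 120 days, against 553.4, 202.8 and 236.4 in controls, with an interaction of -1.93 ± 0.69. Core subunits Psma3 (-1.27 ± 0.48) and Psma1 (-2.31 ± 0.93) and cap subunits Psmc1 (-2.82 ± 1.05), Psmc2 (-1.41 ± 0.63) and Psmd14 (-1.23 ± 0.51) had negative values as well. Psma1 had -1.38 without replicate 2 of G93A at 120 days. Without replicate 1 of the controls at 120 days Psmd14 had -0.72 and the list median was -0.76. Among 33 ubiquitin enzymes the median was -0.53, and -0.30 without that array. At an unadjusted p under 0.05, 2 were negative (6.06%) and 1 was positive (3.03%), near the shares of all genes. Uba3, which activates the ubiquitin-like protein Nedd8, had -1.75 ± 0.56, with 1 of 2 other probe sets of opposite sign.

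Chaperones had 31 of 41 tested members below 0, 10 of them at an unadjusted p under 0.05 (24.4%) and 1 above 0 at that level. The median was -0.95, made of -0.58 at 120 days and 0.27 at 90 days, and it was -0.55 without replicate 1 of the controls at 120 days. That array had the highest chaperone level of the 12, 2.49, while the late G93A arrays had 0.85, 1.26 and 1.54 and the other late controls 1.61 and 1.37. Hspd1, the mitochondrial Hsp60, read 87.8, 55.7 and 127.6 in G93A at 120 days, against 1365.7, 215.1 and 168.4 in controls. At 90 days Hspd1 read 619.3, 548.5 and 419.9 in G93A, against 203.4, 605.9 and 372.4 in controls. Its interaction was -2.65 ± 0.76, and -1.70 without that array. Cct4, a subunit of the TRiC chaperonin that folds actin and tubulin, read 66.9, 61.6 and 108.6 in G93A at 120 days, against 301.3, 216.3 and 167.8 in controls. At 90 days Cct4 read 593.4, 371.1 and 454.6 in G93A, against 312.4, 480.5 and 253.6 in controls, with an interaction of -2.00 ± 0.52 and 1 of its 4 other probe sets of opposite sign. The constitutive Hsp70 Hspa8 (-1.67 ± 0.54), its nucleotide exchange factor Hsph1 (-1.50 ± 0.50), the synaptic co-chaperone Dnajc5 (-1.53 ± 0.51) and the Hsp40 Dnajb1 (-1.22 ± 0.50) were also negative. Hspa8 and Dnajc5 each had 1 of 3 other probe sets of opposite sign. The other probe set of Dnajb1 had the opposite sign, and its value was -0.81 without replicate 3 of the controls at 90 days.

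A promoter of Hspd1 is shown because the factor Hsf1 is known to act on chaperone genes through heat shock elements. The window is chr1:55087883-55088182 on the minus strand of GRCm38.p6 from RefSeq, and capitals mark GAANNTTC, an inverted repeat of the heat shock element unit, which reads the same on both strands. The other RefSeq window of Hspd1 held 0.
Hspd1 promoter: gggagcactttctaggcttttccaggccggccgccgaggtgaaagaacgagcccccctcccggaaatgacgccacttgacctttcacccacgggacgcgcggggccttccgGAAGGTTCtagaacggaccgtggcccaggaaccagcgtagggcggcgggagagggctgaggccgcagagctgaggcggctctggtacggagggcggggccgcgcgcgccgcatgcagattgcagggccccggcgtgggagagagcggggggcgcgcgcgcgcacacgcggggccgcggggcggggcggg
A promoter was matched by symbol for 34 of the 41 chaperone genes, and 13 of their 46 windows (28.3%) held GAANNTTC, as did 7.86% of all windows. The data bear on the levels of these genes and not on binding at these letters.

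In the endoplasmic reticulum list, 28 tested genes had a median of -0.43, or -0.01 with the median over all tested probe sets of each gene. At an unadjusted p under 0.05 there was 1 gene per direction (3.57% each), below the shares of all genes. The lectin chaperone Canx had -1.22 ± 0.48, with both of its other probe sets of opposite sign, and the related Calr 0.80 ± 0.36. The stress factor Ddit3, also known as CHOP, had 1.78 ± 1.11, and 0.44 without replicate 1 of the controls at 120 days.

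The vacuolar proton pump acidifies lysosomes and loads synaptic vesicles. Of its 17 tested subunits 14 lay below 0, 6 at an unadjusted p under 0.05 (35.3%) and 0 above 0 at that level, with a median of -1.02 and, without replicate 1 of the controls at 120 days, -0.75. The list level was 0.67, 1.03 and 0.93 in G93A at 120 days, against 2.39, 1.71 and 1.30 in controls, and the late G93A arrays lay below all others. Atp6v1c1, a subunit of the catalytic sector, read 752.1, 715.6 and 754.3 in G93A at 120 days, against 2011.8, 2821.3 and 1040.4 in controls. At 90 days it read 2463.1, 1670.6 and 2277 in G93A, against 1318, 2015.9 and 1687.5 in controls, with an interaction of -1.64 ± 0.49 and 1 of 2 other probe sets of opposite sign. Atp6v1b2 had -3.80 ± 1.13, with genotype differences of -3.61 at 120 days, 0.19 at 90 days and 4.07 at 60 days. The other probe set of Atp6v1b2 had the opposite sign. Atp6v1h (-3.51 ± 1.26), Atp6ap1 (-1.60 ± 0.77), Atp6v0d1 (-1.35 ± 0.54) and Atp6v1g1 (-1.04 ± 0.44, with both other probe sets of opposite sign) were the others. With signals under 20 set to 20, Atp6v1h had -1.96. Atp6ap1 had -0.75 without replicate 1 of the controls at 120 days and Atp6v0d1 -0.90 without replicate 3 of the controls at 90 days. Atp6v0d1 belongs to the membrane sector, and its promoter is shown because lysosomal genes are known to carry the CLEAR element of the factor Tfeb. The window is chr8:105566015-105566314 on the minus strand of GRCm38.p6 from RefSeq, and capitals mark the palindrome TCACGTGA, which contains the E-box CACGTG.
Atp6v0d1 promoter: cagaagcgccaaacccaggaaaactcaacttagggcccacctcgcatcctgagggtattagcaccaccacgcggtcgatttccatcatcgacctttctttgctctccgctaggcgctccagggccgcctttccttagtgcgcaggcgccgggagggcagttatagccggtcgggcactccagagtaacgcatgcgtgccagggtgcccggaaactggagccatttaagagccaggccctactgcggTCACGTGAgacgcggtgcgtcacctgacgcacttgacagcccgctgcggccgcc
A promoter was matched for 12 of the 17 pump genes. Windows with TCACGTGA were 3 of 13 for the pump (23.1%), those of Atp6v0d1, Atp6v0e and Atp6v1a, and 3 of 23 for the lysosomal list (13%), beside 0.97% of all windows. The lysosomal and cathepsin genes had another balance than the pump, with a median of 0.24, a sign that turned to -0.23 with median centring. At an unadjusted p under 0.05, 3 of 24 were negative (12.5%). These were the membrane proteins Lamp1 (-1.26 ± 0.40) and Scarb2 (-1.17 ± 0.44) and the ceramidase Asah1 (-2.33 ± 1.05, and -1.24 without replicate 1 of G93A at 120 days). Among 27 autophagy genes the median was -0.23, with Atg13 at 1.54 ± 0.46 and Wipi2 at 1.35 ± 0.56, and Nbr1 at -1.87 ± 0.67 and Becn1 at -2.70 ± 1.16. The other probe sets of Atg13 and Nbr1 and 1 of 3 of Becn1 had the opposite sign, and Nbr1 had -1.06 without replicate 1 of the controls at 120 days. Of the members of the list 12 lay above 0 and 15 below.

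Mitochondrial energy genes had negative medians of unequal size. ATP synthase had 14 of 17 tested genes below 0, 6 of them at an unadjusted p under 0.05 (35.3%), and a median of -0.64. Atp5j, coupling factor 6 of the enzyme, read 656.6, 991.7 and 800.5 in G93A at 120 days, against 1860, 1839.1 and 1560.7 in controls. At 90 days Atp5j read 2715, 1987.9 and 2332.8 in G93A, against 2180.4, 1921.3 and 943.2 in controls, with an interaction of -1.68 ± 0.44. The groups stood apart at 120 days only. The alpha and beta subunits Atp5a1 (-1.83 ± 0.55) and Atp5b (-2.82 ± 1.21, and -1.68 without replicate 1 of the controls at 90 days), the rotor subunit Atp5c1 (-1.87 ± 0.62, its other probe set of opposite sign) and the membrane ring gene Atp5g3 (-1.82 ± 0.51) were negative too. The TCA cycle list had 7 of 24 members negative at an unadjusted p under 0.05 (29.2%), 0 positive, and a median of -0.62, which was -0.62 without replicate 1 of the controls at 120 days as well. Sdha, the flavoprotein of succinate dehydrogenase, read 328.7, 627.6 and 381.9 in G93A at 120 days, against 2331.2, 930.5 and 639.7 in controls, and 1668.5, 591.5 and 983.8 in G93A at 90 days, against 381.9, 779.8 and 588 in controls. Its interaction was -2.20 ± 0.60. Mdh1 (malate dehydrogenase, -2.27 ± 0.73), Fh1 (fumarase, -1.34 ± 0.51) and Dlst (of the oxoglutarate dehydrogenase complex, -2.16 ± 0.93) followed. The other probe set of Dlst had the opposite sign, and its value was -1.32 without replicate 1 of G93A at 120 days. Mdh1 encodes the cytosolic enzyme, which serves the malate-aspartate shuttle.

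The electron transport chain itself had smaller medians, -0.22 for 33 genes listed under complex I and -0.46 for 27 listed under complexes II to IV. At an unadjusted p under 0.05, 5 genes of the complex I list were negative (15.2%) and 1 was positive (3.03%). Of complexes II to IV, 4 were negative (14.8%) and 0 positive at that level. Sdha and Sdhd of succinate dehydrogenase are among these 4. They are also counted in the TCA cycle list, so the shares of these lists overlap. In the complex I list as drawn up here, Ndufa4 (-1.53 ± 0.48) and Ndufab1 (-1.28 ± 0.48) were negative, while Ndufa13 had 1.26 ± 0.54. Cox7a2l, a factor for supercomplex assembly, had -1.56 ± 0.49 and the copper chaperone Cox17 -1.27 ± 0.44. Mitochondrial ribosomal proteins had a median of -0.18 over 75 genes, with Mrpl48 at -4.06 ± 1.31 (signals of 11.3 to 125.3) and Mrps11 at 4.10 ± 1.02 (signals of 9.5 to 145.5, its other probe set of opposite sign). Glycolytic genes had a median of 0.02, a sign that turned to -0.45 with median centring. The neuronal enolase Eno2 had -1.81 ± 0.60, and -1.04 without replicate 1 of the controls at 120 days, where it read 5991.3 on that array and 1196.2 and 1189.3 on the other late controls.

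**Figure D4:**
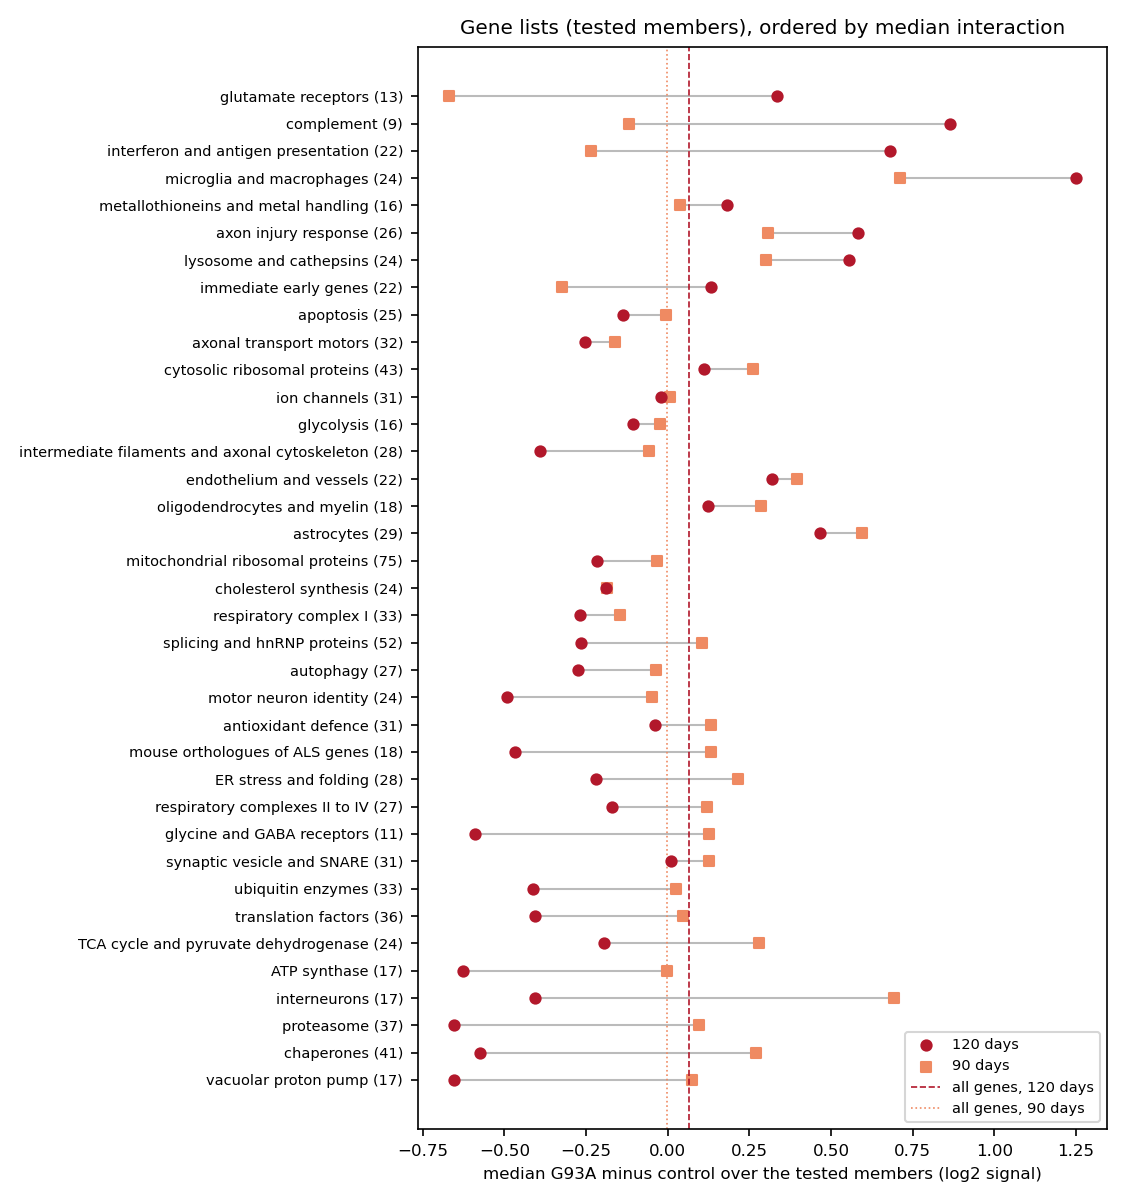
Median genotype difference (G93A minus control, log2 signal) of the tested members of 37 gene lists at 120 days (circles) and at 90 days (squares), with the number of members in brackets. Lists run from the highest median interaction at the top to the lowest at the bottom, and vertical lines mark the medians of all genes. The proteasome, chaperone and proton pump lists lie below 0 at 120 days and above 0 at 90 days.

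Cytoskeletal genes of the axon had no common direction. The 28 tested genes of intermediate filaments and axonal cytoskeleton had a median of 0.01, which was -0.46 with median centring. Nefh read 453.6, 508.3 and 775.1 in G93A at 120 days, against 3126.2, 1043.9 and 843 in controls, and 2694.7, 1924.4 and 3470.9 in G93A at 90 days, against 2922.3, 1882.4 and 1308.9 in controls. The late G93A arrays lay below all others, with an interaction of -1.76 ± 0.58 (limma adjusted p = 0.353). The light chain Nefl, in contrast, had 0.01 ± 0.68, since its genotype difference was -0.65 at 120 days and -0.67 at 90 days. Prph had -1.09 ± 0.60, and -0.52 without replicate 1 of the controls at 120 days, and all 3 of its other probe sets had the opposite sign. The glial and mesenchymal filament Vim read 1310.6, 1575.2 and 918.8 in G93A at 120 days, against 51.2, 220.3 and 507.3 in controls, with 2.07 ± 0.85, and 1.16 without that array. Among 32 genes of axonal transport motors the median was 0.13, a sign that turned to -0.34 with median centring. At an unadjusted p under 0.05, 5 were negative (15.6%) and 3 positive (9.38%). The dynactin subunit Dctn3 (-2.47 ± 0.74), the dynein intermediate chain Dync1i1 (-1.21 ± 0.44), the kinesin light chain Klc1 (-1.73 ± 0.57) and the dynein regulator Pafah1b1 (-1.41 ± 0.53, with 1 of 3 other probe sets of opposite sign) were negative, in contrast to the adaptor Bicd2.

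The motor neuron identity list had a median of -0.30 over 24 tested genes, with a genotype difference of -0.49 at 120 days and -0.05 at 90 days. The sign turned without replicate 1 of the controls at 90 days (0.03), and the median was -0.65 without replicate 3 of that group, -0.46 without replicate 1 of G93A at 90 days and -0.12 without replicate 3 of G93A at 90 days. At an unadjusted p under 0.05, 2 were negative (8.33%), Nefh and the guidance ligand Slit2 (-3.51 ± 1.34, signals of 5.7 to 282.9). The GDNF co-receptor Gfra1 (3.73 ± 1.21, signals of 6.5 to 106.3) alone was positive (4.17%). With 16 added to each signal before log2, Gfra1 had 2.37 and Slit2 -2.57. Chodl, a marker of fast motor neurons, read 37, 68.9 and 54.2 in G93A at 120 days, against 353.8, 482.8 and 86.6 in controls. At 90 days it read 658.8, 75.4 and 377.7 in G93A, against 472, 469 and 848.3 in controls, so its difference was negative at both ages and its interaction -1.14 ± 0.93. Isl1 had 1.46 ± 0.86, with its other probe set of opposite sign, and Mnx1 -0.09 ± 1.12. The list level was -0.21, -0.30 and -0.01 in G93A at 120 days, against 0.14, 0.40 and 0.13 in controls, and 0.31, 0.06 and 0.29 in G93A at 90 days, against 0.09, 0.56 and 0.55 in controls.

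Receptors of the synapses on motor neurons lay on both sides of 0. Of 13 glutamate receptor genes and their partners 11 had a value above 0, 3 at an unadjusted p under 0.05 (23.1%), and the median was 1.02, with a genotype difference of 0.34 at 120 days and -0.67 at 90 days. Without replicate 3 of G93A at 120 days the median was 0.56. Gria3, an AMPA receptor subunit, read 302.5, 371.2 and 282.1 in G93A at 120 days, against 142.4, 444.4 and 257 in controls. At 90 days Gria3 read 146.4, 391 and 307.1 in G93A, against 770.7, 668.2 and 392.7 in controls, and its interaction was 1.5 ± 0.55. The genotypes overlapped at 120 days, and all G93A arrays lay below all control arrays at 90 days. The NMDA receptor subunit Grin2c had 3.75 ± 1.38, and 2.22 with 16 added to each signal before log2. The AMPA receptor auxiliary protein Cacng2 had 3.25 ± 1.28, and 1.98 without replicate 1 of the controls at 120 days. The AMPA subunit Gria2, which makes the channel impermeable to calcium, had 0.31 ± 0.49. Glycine and GABA receptor genes had a median of -0.47 over 11 tested members, and -0.07 without replicate 1 of the controls at 120 days. With the median over all tested probe sets of each gene the sign turned to 0.26. At an unadjusted p under 0.05, 4 were negative (36.4%). They were the scaffold Gphn (-2.41 ± 0.83, its other probe set of opposite sign), the glycine receptor subunit Glrb (-2.83 ± 1.01), the potassium-chloride exporter Slc12a5 (-1.38 ± 0.60) and the sodium-potassium-chloride importer Slc12a2 (-1.23 ± 0.53, both other probe sets of opposite sign). Without replicate 2 of G93A at 120 days, which read 7 for Gphn and 7.2 for Glrb, the values were -1.27 for Gphn and -1.80 for Glrb. Slc12a5 had -0.82 without replicate 1 of the controls at 120 days.

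Synaptic vesicle genes had a median of -0.47 over 31 genes. At an unadjusted p under 0.05, 3 were negative (9.68%, against 5.2% of all genes). These were the endocytic protein Amph (-1.87 ± 0.56), the SNARE-recycling ATPase Nsf (-1.54 ± 0.60) and the SNARE Vamp1 (-1.18 ± 0.48, its other probe set of opposite sign). Without replicate 1 of the controls at 120 days Nsf had -0.98 and the median was -0.24. Ion channel genes had a median of 0.06, where that of all genes was 0.06 too, a sign that turned to -0.42 with median centring. At an unadjusted p under 0.05, 2 of 31 were negative (6.45%, near the 5.2% of all genes). These were the potassium channel Kcnk1 (-1.09 ± 0.46) and the subunit Kcnab1 (-1.67 ± 0.77, its other probe set of opposite sign). Kcnab1 had -0.82 without replicate 2 of G93A at 120 days. Markers of interneurons, which lie beside motor neurons, had a median of -0.88 over 17 genes, with a genotype difference of -0.41 at 120 days and 0.69 at 90 days, and -1.37 without replicate 2 of the controls at 90 days. Gad1, a GABA-synthesizing enzyme, read 37.3, 108.1 and 68 in G93A at 120 days, against 599.4, 150.7 and 141.2 in controls. At 90 days Gad1 read 206.7, 197.2 and 177.4 in G93A, against 59.9, 106.9 and 27.4 in controls, for an interaction of -3.63 ± 1.03. Its paralogue Gad2 had 1.34 ± 0.63. Gad1 stood apart at both ages with opposite signs, while Gad2 overlapped at 120 days and was lower in all G93A arrays at 90 days. Another probe set of Gad1 had an interaction of -0.59 ± 1.33, and its genotypes overlapped at both ages. The part of interneuron RNA in the other results was not tested.

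**Figure D5:**
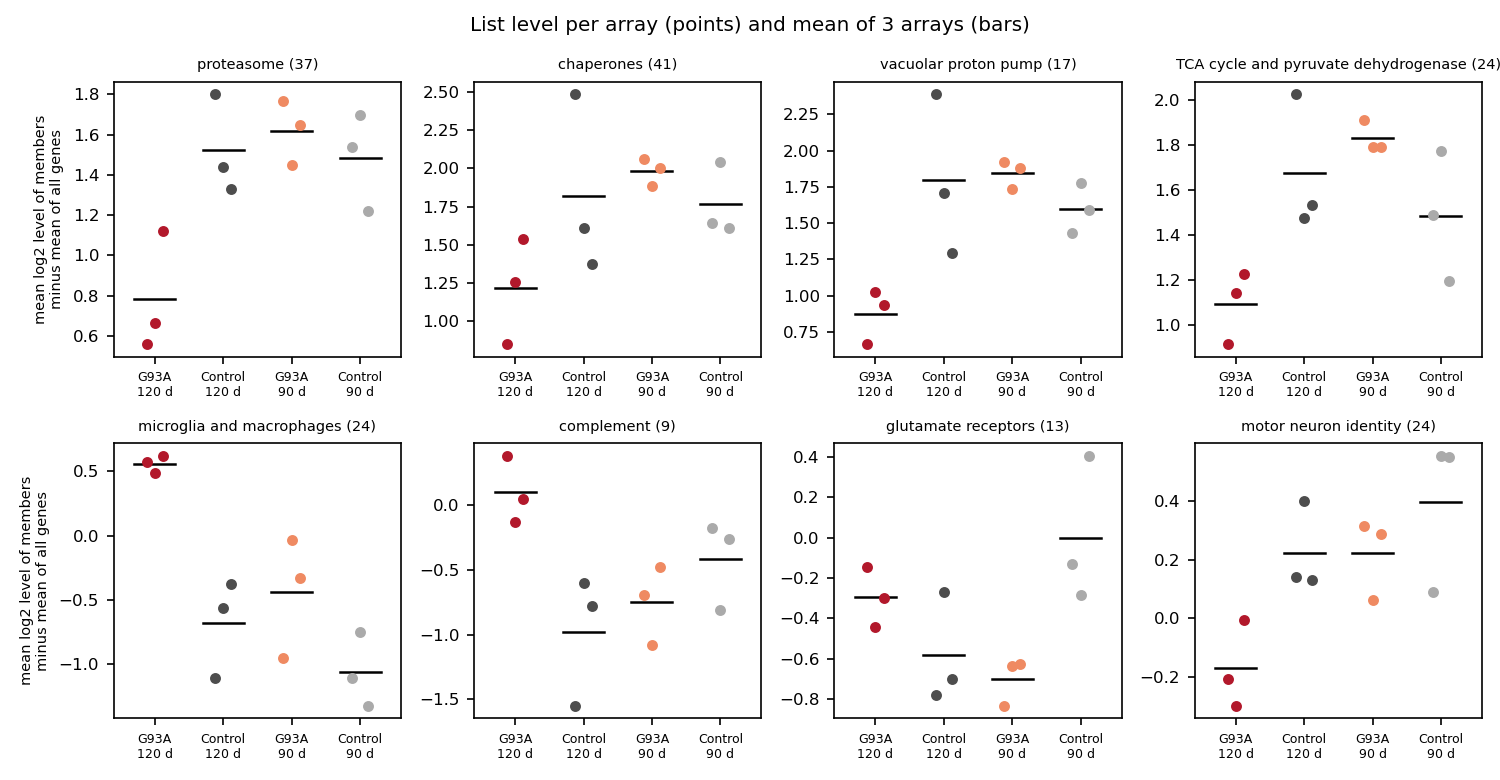
List level per array (log2, members' mean less the mean over all genes) for 8 gene lists, with G93A and control at 120 days to the left and G93A and control at 90 days to the right in each panel. Points are arrays and bars are means of 3 arrays. The late G93A arrays are lowest for the proteasome and proton pump lists and highest for the microglial list, and replicate 1 of the late controls is highest for the chaperones.

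Astrocyte markers did not share a direction. The median over 29 genes was -0.18, with 6 negative (20.7%) and 3 positive (10.3%) at an unadjusted p under 0.05. Gfap, the filament of reactive astrocytes, read 406.2, 846.5 and 427.7 in G93A at 120 days, against 65, 104.9 and 199.4 in controls, and 64.3, 90.2 and 110.7 in G93A at 90 days, against 25.1, 68.9 and 81.7 in controls. Its interaction was 1.52 ± 0.81 (limma adjusted p = 0.534), and the late G93A arrays were its high group. The bicarbonate transporter Slc4a4 had 2.39 ± 0.84, while the protease inhibitor Cst3 (-2.17 ± 0.69), the connexin Gjb6 (-2.20 ± 0.72), Sparcl1 (-2.05 ± 0.69) and the growth factor receptor Fgfr3 (-3.08 ± 1.07) were negative. Slc4a4 had 1.57 without replicate 1 of G93A at 90 days and Fgfr3 -2.01 without replicate 3 of the controls at 90 days. Oligodendrocyte and myelin genes had a median of -0.16, a sign that turned to 0.24 with the Gapdh ratio as a covariate. Mbp, whose signals were higher at 120 days by 1.22 in G93A and 1.52 in controls, had an interaction of -0.30 ± 0.54. Of its other probe sets 3 of 7 had the opposite sign. Endothelial genes had a median of -0.01, with the glucose transporter Slc2a1 at 1.10 ± 0.52, and 0.62 without replicate 1 of the controls at 120 days.

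Genes of injured axons had a median of 0.40 over 26 tested members, a sign that turned to -0.08 with median centring. At an unadjusted p under 0.05, 1 was positive (3.85%, below the 4.61% of all genes). It was the small heat shock protein Hspb1 (1.08 ± 0.48, and 0.69 without replicate 1 of the controls at 120 days). Sprr1a, which promotes axon growth after injury, read 134.1, 81.8 and 132.8 in G93A at 120 days, against 27.3, 12.9 and 17.9 in controls, and 99.4, 116.2 and 83.3 in G93A at 90 days, against 19.9, 51 and 97.8 in controls. Its difference was positive at both ages and its interaction 1.53 ± 0.94, and 0.99 without replicate 3 of the controls at 90 days. The transcription factor Jun had 1.02 ± 0.55 and Atf3 1.65 ± 1.21. Immediate early genes had a median of 0.23 and apoptosis genes of 0.15, and both signs turned with median centring and with quantile normalization. Jund (1.04 ± 0.42) was the early gene at an unadjusted p under 0.05, and Birc2 (-2.18 ± 0.86), Xiap (-2.80 ± 1.24, both other probe sets of opposite sign) and Bnip3 (-1.26 ± 0.51) were the apoptosis genes, the first pair being inhibitors of caspases.

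Splicing and hnRNP proteins had 10 of 52 members negative (19.2%) and 1 positive at an unadjusted p under 0.05, with a median of -0.23. Hnrnph1 (-2.60 ± 0.75, its other probe set of opposite sign), Hnrnpm (-2.79 ± 1.07, and -1.65 without replicate 3 of G93A at 120 days) and the core spliceosome protein Snrpe (-1.17 ± 0.41) were negative, and the neuronal RNA-binding protein Elavl3 had 1.56 ± 0.50. Translation factors had a median of -0.56 over 36 genes, and -0.35 without replicate 1 of the controls at 90 days. At an unadjusted p under 0.05, 4 were negative (11.1%) and 3 positive (8.33%). The elongation factor Eef1a1 read 140.8, 422.2 and 251.1 in G93A at 120 days, against 1139.8, 235.4 and 338.4 in controls, and 1202.7, 1075.9 and 953.1 in G93A at 90 days, against 212.8, 498.1 and 207.4 in controls. It overlapped at 120 days and stood apart at 90 days, with an interaction of -2.80 ± 0.79. Cytosolic ribosomal proteins had a median of 0.10 over 43 genes, a sign that turned to -0.37 with median centring.

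Mouse orthologues of human ALS genes had a median of -0.42 over 18 tested genes, and -0.09 without replicate 1 of the controls at 120 days or 0.02 with the median over all tested probe sets of each gene. Matrin 3, Matr3, had -1.43 ± 0.54, the ubiquitin shuttle Ubqln2 -1.58 ± 0.78, its other probe set of opposite sign, and the ataxin Atxn2 1.18 ± 0.44, with 2 of its 3 other probe sets of opposite sign. Sod1 itself read 294.5, 377.3 and 448.8 in G93A at 120 days, against 1576.9, 134.2 and 213.4 in controls. Its 90-day signals were 261.7, 638.7 and 622.3 in G93A, against 186.5, 207.4 and 232.5 in controls, so that the groups overlapped at 120 days and stood apart at 90 days. The interaction was -1.13 ± 0.80, and -0.06 without replicate 1 of the controls at 120 days, whose signal was the highest of the 12, or -1.83 without replicate 2 of that group. Ubqln2 had -0.99 without replicate 3 of the controls at 90 days. The probe sets are designed to mouse Sod1, and how far they detect the human transcript was not tested. Antioxidant genes had a median of -0.36, with the peroxiredoxin Prdx4 at -1.64 ± 0.68 and the mitochondrial thioredoxin reductase Txnrd2 at 3.43 ± 1.36 (signals of 6.8 to 95.4). Cholesterol synthesis genes had a median of -0.22, with the desaturase Scd2 at -1.73 ± 0.51, with 1 of 2 other probe sets of opposite sign, and the isomerase Idi1 at -1.58 ± 0.62.

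Besides motor neuron identity, the sign of 10 list medians turned when 1 of the 12 arrays was left out. Their ranges were -0.38 to 0.19 for the axonal cytoskeleton, -0.05 to 0.27 for transport motors, -0.18 to 0.09 for glycolysis, -0.00107 to 0.18 for ion channels and -0.32 to 0.09 for astrocytes. They were -0.41 to 0.06 for oligodendrocytes, -0.30 to 0.21 for endothelium, -0.04 to 0.59 for immediate early genes, -0.14 to 0.44 for apoptosis and -0.17 to 0.17 for cytosolic ribosomal proteins.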

How the data were processed

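Laser-captured motor neurons of 18 mice were measured on 18 arrays with 22690 probe sets, of which 12 arrays enter the comparison. The values used are the signal intensity deposited by the authors. The submitters' processing notes name MAS5, and each array had a trimmed mean near 100. Values under 1 (0.236%) were set to 1 and log2 was taken. Probe sets with a signal above the array median in at least 3 of 18 arrays were tested (16565), without control probe sets. Means of 6 groups were fitted with limma 3.58.1 in R 4.3.3 (eBayes with trend, 12 residual degrees of freedom, two-sided), with Benjamini-Hochberg adjustment over all probe sets. The code was tested on simulated data. Symbols came from the platform annotation (20380 probe sets with 1 symbol, 691 with several, 1555 with none), of which 20351 matched the GRCm38.p6 RefSeq table. Each gene is represented by the tested probe set with the highest mean.

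Named genes were those with an adjusted p under 0.05 (0), then 15 per direction by smallest p among genes at or above the median level, at least 1.5-fold, without overlap of G93A and control arrays at either or both ages, then up to 6 per list by smallest p, and Sod1, Lgals3, Mt1, Tyrobp, Gfap, Mbp, Nefl, Prph and Aif1. A few others (C1qb, C1qc, Chodl and further markers) were named after their values were seen. The members and lists were chosen with earlier results of these data known. Each array is a separate mouse, and the number of arrays limits the precision. Alternatives were other scalings, floors, filters, covariates, weights, a replicate block and leaving out each array.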

Additional observations from a re-analysis of the deposited data

Results flagged for a closer look

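The median signal of the arrays differed between ages in its genotype difference. It averaged 54.3 in G93A and 43.7 in controls at 120 days, against 47.4 in G93A and 52.9 in controls at 90 days, a difference of differences of 16.1 (exact permutation test within ages, two-sided, p = 0.02, adjusted over 4 measures p = 0.08). All late G93A arrays had a higher median signal than all late controls. With each array centred on its median, limma gave 0 probe sets at an adjusted p under 0.05 and 2022 at an unadjusted p under 0.05. Beyond such scalings, the part of the median signal in the results was not tested.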

How the results depend on the processing

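With limma, 0 probe sets passed in the interaction as reported, and 1661 had an unadjusted p under 0.05. Without the trend in the spread 2 passed, Herc4 (4.20, adjusted p = 0.0497, against 0.279 as reported) and an unnamed probe set (7.45). Leaving out each array gave 0 to 1 calls and 1189 to 2019 probe sets at an unadjusted p under 0.05, and the call, Sf3b2 (4.69, adjusted p = 0.0374), came without replicate 1 of the controls at 120 days. The other alternatives gave 0 calls, with 1180 (Gapdh ratio as a covariate) to 2249 (no filter) at an unadjusted p under 0.05. Replicate numbers are shared by the groups, and 0 of 9 pairs correlated above 0.1 (-0.116 to 0.0576). No pairing was thus seen across probe sets, though such correlations cannot exclude one that affects few genes. A fit with the replicate block gave 0 calls and 1638 at an unadjusted p under 0.05. Of 236 named gene values 233 kept their direction in every alternative run for them (30 for 215 genes, and 29 for 21 that the filter of 9 arrays left out), with Nefl, Cd59a and Olig1 as exceptions. Of 37 list medians 25 stayed on the same side of the median of all genes. Signals near the array median limit what low probe sets can show.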
